A study of Mus musculus with 12 samples.

Results

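Ciart, Bhlhe40, Bhlhe41, Dbp, Tef, Hlf and Nfil3 are transcription regulators at the output end of the circadian clock. They were chosen by name, as the genes of the count table whose Ensembl identifier carries 1 of these symbols, and 7 of the 54532 genes of that file met this rule. The names were picked with earlier results of these data known. All 7 passed the filter on low counts and stand among the 18299 genes tested.

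Retinal RNA was sequenced as 12 libraries, 3 in each of 4 groups, from wild type C57BL/6 mice aged 13 weeks in every group. SHAM mice served as controls, and the labels give no detail of what they received. MOG mice were immunized with the myelin oligodendrocyte glycoprotein peptide in Freund's adjuvant together with pertussis toxin, which induces experimental autoimmune encephalomyelitis (EAE) with optic neuritis. GB20 and GV16 mice received the same immunization and were later needled repeatedly at acupoint GB20 or at the control acupoint GV16. In the study's methods the mice were female, few animals formed a group in each repeat of the experiment, and anesthesia with xylazine and ketamine is described before needling only, so needling and anesthesia cannot be told apart here. The hour at which retinas were collected is not given in the sources used here, and a group difference in level and a difference in collection hour cannot be told apart for genes of a daily rhythm. The study's methods describe the sequenced RNA as coming from 3 biological replicates. Nothing in the labels ties a library to 1 animal, so the tests measure the spread between libraries, which holds any technical part as well.

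As background, the activators CLOCK and BMAL1 bind E-boxes in clock genes, and the proteins made from some of those genes then shut the activators off, which closes a daily loop. Ciart, also called CHRONO, encodes a repressor of BMAL1 and CLOCK, and the DEC proteins encoded by Bhlhe40 and Bhlhe41 compete for the E-box itself. Dbp, Tef and Hlf encode the PAR-bZIP activators, which carry the rhythm onward through D-box sites in target genes, and Nfil3 encodes the repressor that competes with them at the same sites. The retina holds its own clock, which runs in several of its cell types.

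The members lie on 6 chromosomes of GRCm38, with positions from GENCODE vM21. Ciart (ENSMUSG00000038550) spans chr3:95878503-95882251 on the minus strand. Bhlhe40 (ENSMUSG00000030103) spans chr6:108660629-108666925 on the plus strand, and Bhlhe41 (ENSMUSG00000030256) spans chr6:145858243-145865558 on the minus strand. Dbp (ENSMUSG00000059824) spans chr7:45705088-45710203 and Tef (ENSMUSG00000022389) chr15:81802421-81826863, both on the plus strand. Hlf (ENSMUSG00000003949) spans chr11:90336536-90390895 and Nfil3 (ENSMUSG00000056749) chr13:52967209-52981073, both on the minus strand. Each value below is over the exons of the gene, and all members are annotated as protein coding.

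Some of these exons are shared with a gene on the other strand. Of the exon bases of Dbp 18.0% also belong to Sphk2, which encodes a sphingosine kinase, and of those of Bhlhe41 19.0% also belong to Gm43909, a locus of uncertain coding status. Bhlhe40 shares 2.51% with 0610040F04Rik and Tef 2.45% with Gm17597, both annotated as antisense. The strand setting of the counting is not given in the sources used here, so reads from the shared stretches cannot be assigned to a strand and the values of Dbp and Bhlhe41 are uncertain to that extent. The overlapping genes were low beside the member they overlap: Sphk2 averaged 17.2 CPM (counts scaled to 1e6 of the TMM-adjusted library size) in SHAM and 17.4 CPM in MOG, and Gm43909 5.26 and 4.34 CPM. None of the 5 genes that overlap a member's span passed the test in any of the 6 comparisons. Their own counts carry the same uncertainty, so neither these levels nor the lack of a call shows how far the overlap moved a member's values.

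Upstream sequence was available for 6 of the 7 members in the RefSeq promoter table of GRCm38.p6, over the 250 bases before each transcription start. Both strands were searched for the E-box CACGTG, the E-box-like CACGTT, the D-box TTATGTAA or TTACGTAA, and the cAMP response element (CRE) TGACGTCA. No 2 of these motifs overlapped in a member. The sequences shown are those with a match, and that of Dbp for comparison, each 5′ to 3′ on the gene's strand and ended before the first annotated exon, with the matched motif in capitals. Ciart is shown over chr3:95882252-95882478 on the minus strand, Bhlhe41 over chr6:145865559-145865670 on the minus strand, the second of the listed Tef starts over chr15:81811164-81811413 on the plus strand, Hlf over chr11:90390918-90391167 on the minus strand and Dbp over chr7:45704997-45705087 on the plus strand.
Ciart: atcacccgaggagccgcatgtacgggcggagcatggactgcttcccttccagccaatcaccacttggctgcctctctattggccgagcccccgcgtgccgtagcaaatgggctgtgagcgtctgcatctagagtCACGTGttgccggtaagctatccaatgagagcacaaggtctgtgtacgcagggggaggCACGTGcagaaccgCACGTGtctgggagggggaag
Bhlhe41: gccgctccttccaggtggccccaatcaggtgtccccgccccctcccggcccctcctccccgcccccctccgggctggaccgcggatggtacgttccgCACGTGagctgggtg
Tef: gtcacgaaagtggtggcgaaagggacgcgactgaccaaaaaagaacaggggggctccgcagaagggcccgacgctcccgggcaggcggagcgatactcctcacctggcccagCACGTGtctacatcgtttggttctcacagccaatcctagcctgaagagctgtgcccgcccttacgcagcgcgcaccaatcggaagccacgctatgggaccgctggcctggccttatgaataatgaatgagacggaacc
Hlf: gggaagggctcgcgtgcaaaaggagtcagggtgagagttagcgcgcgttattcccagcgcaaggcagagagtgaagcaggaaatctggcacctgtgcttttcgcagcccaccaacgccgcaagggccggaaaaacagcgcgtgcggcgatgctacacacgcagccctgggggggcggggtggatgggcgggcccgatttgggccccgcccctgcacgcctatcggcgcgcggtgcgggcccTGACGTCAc
Dbp: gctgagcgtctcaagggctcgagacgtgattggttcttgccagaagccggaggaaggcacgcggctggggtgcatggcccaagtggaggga

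Ciart held 3 E-boxes, whose first bases lie at -116, -58 and -44 from the start. Of the 32851 promoters listed, 6.02% held an E-box and 0.0609%, or 20 promoters, held 3 or more. Bhlhe41 held 1 E-box, at -153, and Tef held 1 at each of its starts, at -127 and -138. All 250 bases before the first Tef start lie in annotated Tef exon, so its match at -127 is within the annotated gene and its sequence is not shown. Hlf held the CRE at -9, a motif found in 1.55% of promoters. Dbp and Nfil3 held none of the motifs in this window, and no member held the D-box (0.932% of promoters) or the E-box-like motif (3.85%). A match describes the letters only, and the absence of a match says nothing of sites outside the window.

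**Figure D1:**
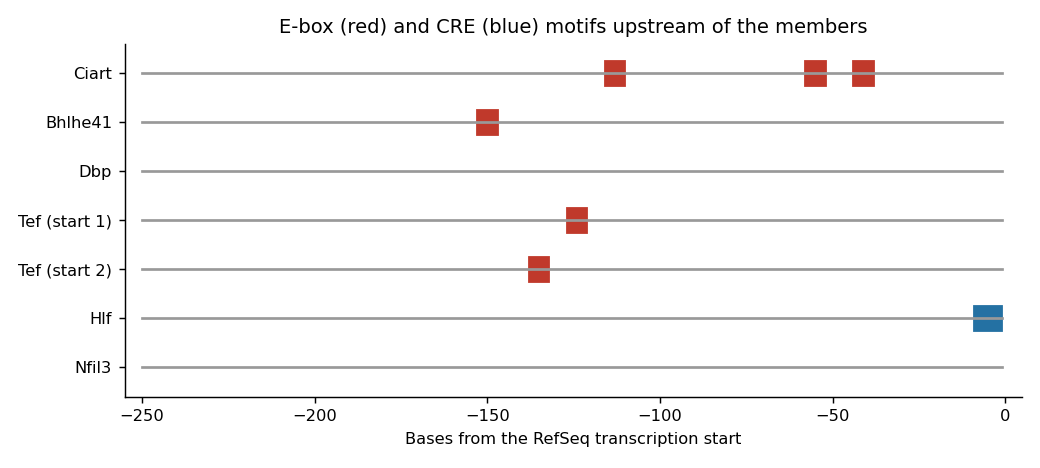
Motif matches by distance in bases from the RefSeq transcription start for 6 members, with both listed starts of Tef. The window of Tef start 1 lies wholly in annotated Tef exon. Red boxes are E-boxes and the blue box is the CRE; Ciart carries 3 E-boxes, Bhlhe41 and each Tef start carry 1, and the lines of Dbp and Nfil3 are empty.

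Total counts per library lay between 15860278 and 19194280, and the members had between 154 counts (Ciart in a MOG library) and 6989 counts (Tef in a GB20 library), so none was limited by a count near 0. The retinal markers matched the label: the 6 rod markers summed to between 9948 and 11415 FPKM in every library, against at most 3.69 FPKM for the 3 lens markers and 0.235 FPKM for the 3 immune markers. Gene length moved with most comparisons. Among tested genes, the lengths of Nfil3, Ciart and Dbp stood at percentiles 23.6, 27.1 and 39.1, and that of Bhlhe40 at 62.0. Hlf, Bhlhe41 and Tef were longer, at percentiles 79.1, 79.3 and 85.1. A positive rho goes with lower fold changes in shorter genes. Across 12277 genes, Spearman's rho between the log2 fold change and gene length was 0.34 for MOG vs. SHAM, -0.37 for GB20 vs. MOG, -0.15 for GV16 vs. MOG, -0.35 for GB20 vs. GV16, 0.26 for GV16 vs. SHAM and 0.027 for GB20 vs. SHAM, and a fit with this trend removed is given with the alternatives.

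Levels were compared between members as FPKM, which divide by gene length. The PAR-bZIP activators were the most abundant members in all 4 groups, the DEC genes followed, and Ciart and Nfil3 were the least abundant. In SHAM the mean FPKM (± SD, n = 3 throughout) was 41.5 ± 1.48 for Dbp, 41.0 ± 0.149 for Tef, 32.3 ± 2.41 for Hlf, 14.1 ± 0.431 for Bhlhe41, 11.4 ± 0.234 for Bhlhe40, 7.57 ± 0.519 for Ciart and 7.39 ± 0.381 for Nfil3. Dbp and Tef overlapped over the SHAM libraries, and so did Ciart and Nfil3, while the other neighbours in this order did not. In MOG, Tef (37.2 ± 0.731 FPKM) stood above Dbp (29.4 ± 0.805 FPKM) without overlap, Dbp overlapped Hlf (27.8 ± 2.68 FPKM), and Ciart (4.22 ± 0.3995 FPKM) lay below Nfil3 (7.13 ± 0.136 FPKM) without overlap. In GB20, Tef (45.4 ± 0.249 FPKM) was again above Dbp (39.7 ± 3.49 FPKM) and Ciart (9.40 ± 1.22 FPKM) was above Nfil3 (6.78 ± 0.754 FPKM), both without overlap, whereas Ciart overlapped Bhlhe40 (11.7 ± 1.20 FPKM). In GV16, Dbp (30.9 ± 1.51 FPKM) overlapped Hlf (30.8 ± 3.03 FPKM), and Ciart (7.32 ± 1.22 FPKM) overlapped both Nfil3 (6.96 ± 0.618 FPKM) and Bhlhe40 (9.10 ± 0.539 FPKM).

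Ciart had the largest fold change of the members in MOG vs. SHAM and in both comparisons of a needled group with MOG. Its levels were 17.9, 18.0 and 15.9 CPM in SHAM, 8.62, 10.5 and 9.73 CPM in MOG, 21.3, 24.3 and 18.7 CPM in GB20, and 14.96, 19.9 and 15.1 CPM in GV16. Every MOG library lay below every library of the other groups, GB20 lay above SHAM, and GV16 overlapped both SHAM and GB20. The group means were 17.3 ± 1.17 CPM in SHAM, 9.62 ± 0.949 CPM in MOG, 21.4 ± 2.78 CPM in GB20 and 16.7 ± 2.83 CPM in GV16 (SD, n = 3).

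Bhlhe40, the DEC gene also known as DEC1, stood at 53.7, 55.1 and 53.0 CPM in SHAM and at 42.4, 39.8 and 45.0 CPM in MOG. It stood at 49.8, 60.6 and 56.5 CPM in GB20 and at 45.8, 41.2 and 42.3 CPM in GV16. The MOG and GV16 libraries overlapped each other and lay below all SHAM and all GB20 libraries. Its paralog Bhlhe41 (DEC2) spread little, from 92.2 to 97.6 CPM in SHAM, 90.0 to 94.9 CPM in MOG, 97.0 to 107 CPM in GB20 and 96.4 to 103 CPM in GV16. The MOG libraries of Bhlhe41 lay just below those of both needled groups and overlapped SHAM.

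Dbp, the PAR-bZIP factor named for binding the albumin D-box, split into the same pairs of groups as Bhlhe40. Its levels were 125, 130 and 121 CPM in SHAM, 89.4, 86.3 and 90.6 CPM in MOG, 119, 131 and 110 CPM in GB20, and 97.7, 93.2 and 88.7 CPM in GV16. SHAM and GB20 overlapped, MOG and GV16 overlapped, and the former pair lay above the latter without overlap.

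Tef, named thyrotroph embryonic factor, had the lowest spread of the members within groups when the 4 groups were pooled. Its levels were 327, 324 and 326 CPM in SHAM, 293, 303 and 290 CPM in MOG, 360.0, 359 and 360.0 CPM in GB20, and 358, 355 and 332 CPM in GV16. No group overlapped another, in the order MOG, SHAM, GV16, GB20. The pooled SD within groups was 0.034 on the log2 CPM scale against a median of 0.095 over 449 genes of like level, at the 0.668 percentile of those genes. In GV16 alone the SD of Tef was 4.12% of its mean CPM, above the 3.70% of Bhlhe41.

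Hlf, named hepatic leukemia factor, ranged from 199 to 227 CPM in SHAM, 176 to 207 CPM in MOG, 194 to 220 CPM in GB20 and 192 to 229 CPM in GV16, and every group overlapped every other. Nfil3 ranged from 14.4 to 15.9 CPM in SHAM, 14.3 to 14.9 CPM in MOG, 12.4 to 15.4 CPM in GB20 and 12.8 to 15.2 CPM in GV16, again with every group overlapping.

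**Figure D2:**
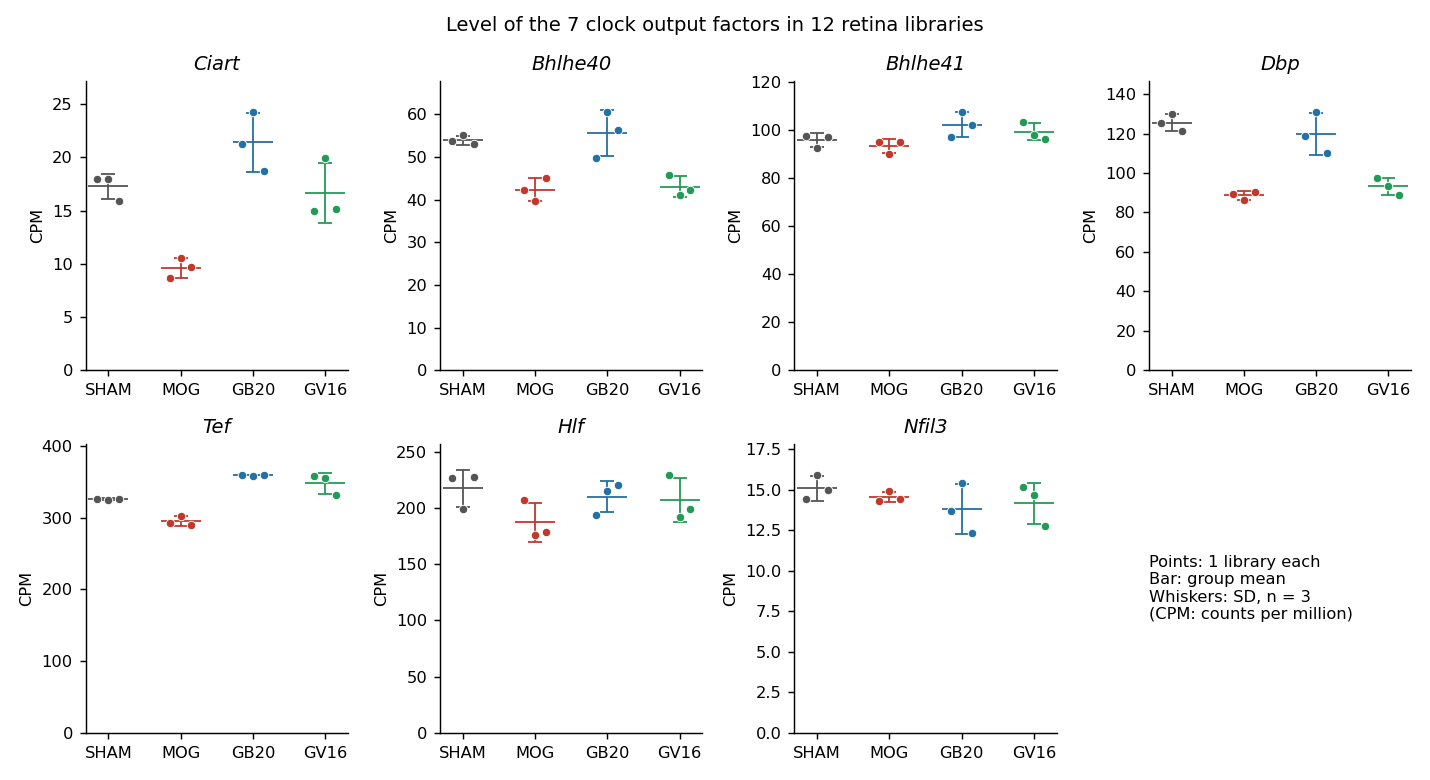
CPM of each member in the 12 libraries, by group; points are libraries, bars are group means and whiskers are the SD of 3 libraries. Ciart, Bhlhe40 and Dbp were lower in MOG than in SHAM, GV16 sat with SHAM for Ciart but with MOG for Bhlhe40 and Dbp, and Tef showed very little spread in SHAM and GB20.

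MOG vs. SHAM addressed which retinal transcripts differ with EAE and optic neuritis. Ciart fell the most among the members, and Bhlhe40 and Dbp fell with it. Transcripts that encode a repressor of the core loop, an E-box competitor and an output activator were thus all lower in MOG than in SHAM. Of the 7 members 3 were called lower at an adjusted p under 0.05 (edgeR quasi-likelihood test, Benjamini-Hochberg over all 18299 genes) and 0 higher, while 1.34% of all genes tested were called in either direction. In 4 members, the same 3 and Tef, the groups did not overlap, against 16.2% of all genes. Because the members were picked with earlier results known, such shares describe the set and test nothing, here and in the comparisons below. All 7 fold changes were negative, with a median log2 fold change of -0.22 beside -0.0023 over all genes.

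Ciart fell by 0.85 on the log2 scale (SE 0.131, adjusted p = 0.00105), to 0.556 of its SHAM level. Dbp fell by 0.50 (SE 0.0721, adjusted p = 0.000434), to 0.707 of SHAM. Bhlhe40 fell by 0.35 (SE 0.0819, adjusted p = 0.0313), to 0.786 of SHAM. These 3 differences exceeded the spread between libraries. The calls of Ciart and Dbp held in all 12 fits that left out 1 library and in all 10 other alternatives, which changed the tool, the libraries fitted, the scaling, the filter, the unit, the pairing or the length correction. That of Bhlhe40 was lost without SHAM 1, SHAM 2, MOG 1, MOG 2 or MOG 3 (adjusted p between 0.0659 and 0.241 in edgeR) and in 3 of the other alternatives.

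The other members did not pass the test. Hlf had a log2 fold change of -0.22 (95% interval -0.39 to -0.042, adjusted p = 0.266) and Tef one of -0.14 (-0.28 to -0.0062, adjusted p = 0.356). Nfil3 had -0.054 (-0.28 to 0.18) and Bhlhe41 -0.036 (-0.17 to 0.10). The intervals of Bhlhe40 and Bhlhe41 did not overlap, but the difference between these paralogs was not tested.

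The 6 markers of retinal ganglion cells fixed for the tissue check, Rbpms, Pou4f1, Nefl, Thy1, Sncg and Isl2, were all called lower in MOG vs. SHAM, with a median log2 fold change of -0.93. Their summed level was 213 to 246 FPKM in SHAM, 122 to 141 in MOG, 155 to 160 in GB20 and 115 to 166 in GV16, and none was at 0 in any library. Their part in the fall of Ciart, Bhlhe40 and Dbp was not tested. In whole retina, fewer cells of a type and less RNA per cell cannot be told apart. The rod markers had 0 of 6 called and a median log2 fold change of -0.0087.

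Markers of other cell types moved in the same comparison. Of the 4 Müller glia markers 1 was called, Aqp4, the water channel of glial end feet, which rose by 0.46 (SE 0.0707, adjusted p = 0.000812), while the list summed to 757 to 810 FPKM in SHAM and 643 to 737 FPKM in MOG, without overlap, and to 703 to 769 in GB20 and 737 to 788 in GV16. The 3 pigment epithelium markers had 0 called, but their sum of 5.44 to 9.56 FPKM in SHAM did not overlap the 12.5 to 15.8 FPKM in MOG. No marker of cones, bipolar cells, amacrine cells, lens, blood or immune cells was called in MOG vs. SHAM. The part of these markers in the members' values was not tested.

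GB20 vs. MOG addressed the effect of needling at GB20 in immunized mice. The genes that were lower in MOG were higher in GB20: Ciart was 2.23-fold, Dbp 1.35-fold and Bhlhe40 1.31-fold the MOG level. Of the 7 members 3 were called higher and 0 lower, where 0.24% of all genes tested were called, and 5 members did not overlap, against 15.7% of all genes. The median log2 fold change was 0.28 beside 0.00084 over all genes. MOG vs. SHAM and the 2 comparisons of a needled group with MOG share the MOG libraries, so opposite signs between them are no independent evidence.

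Ciart rose by 1.16 on the log2 scale (SE 0.130, adjusted p = 3.39e-05) and ranked 4 of the 18299 genes by p. Dbp rose by 0.43 (SE 0.0721, adjusted p = 0.00554) and Bhlhe40 by 0.39 (SE 0.0818, adjusted p = 0.0414). Ciart remained called in all 12 fits that left out 1 library and in all 10 other alternatives. Dbp was no longer called without MOG 2 (adjusted p = 0.0705 in edgeR) or GB20 2 (adjusted p = 0.0716), and Bhlhe40 was no longer called without SHAM 1, MOG 1, MOG 2, MOG 3, GB20 2, GB20 3, GV16 2 or GV16 3 (adjusted p between 0.0501 and 0.357). On FPKM, limma called Bhlhe40 with neither pseudocount, and Dbp with 0.1 but not with 1 (adjusted p = 0.0517).

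Tef, with 359 to 360.0 CPM in GB20 against 290 to 303 CPM in MOG, had a log2 fold change of 0.28 (SE 0.0651, 95% interval 0.15 to 0.42) and did not pass the test (adjusted p = 0.0819). It passed in 7 of the 10 other alternatives and without SHAM 2. Bhlhe41 had a log2 fold change of 0.13 (-0.0084 to 0.27, adjusted p = 0.638) although its groups did not overlap, and Hlf one of 0.16 (-0.011 to 0.34, adjusted p = 0.638). Nfil3 had -0.073 (-0.30 to 0.16, adjusted p = 0.893), the only negative value. The ganglion cell markers had 0 of 6 called here, all 6 with a positive fold change and a median log2 of 0.28. The cone markers had 0 of 4 called, with 3 positive fold changes and 1 negative. The cone sum was 441 to 457 FPKM in MOG and 499 to 520 FPKM in GB20, without overlap. It was 447 to 524 FPKM in SHAM and 446 to 531 FPKM in GV16. Of the Müller glia markers Aqp4 was called lower, falling by 0.35 (adjusted p = 0.0293), and it was also lower in GV16 vs. MOG, by 0.34 (adjusted p = 0.0473). Their part in the members' values was not tested.

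GV16 vs. MOG asked the same of needling at the control acupoint. Ciart alone was called: it rose by 0.79 on the log2 scale (SE 0.132, adjusted p = 0.00731) and stood at 1.73-fold the MOG level. One of 7 members called compares with 0.164% of all genes, and 3 members that did not overlap, Ciart, Tef and Bhlhe41, with 12.6%. The call of Ciart was lost without MOG 1 (adjusted p = 0.0728), MOG 3 (0.0519) or GV16 2 (0.119) in edgeR and in both limma fits on FPKM.

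Bhlhe40 and Dbp were not called in GV16 vs. MOG, with log2 fold changes of 0.024 (95% interval -0.15 to 0.20) and 0.071 (-0.079 to 0.22). Tef had 0.24 (0.10 to 0.37, adjusted p = 0.309), close to its value of 0.28 in GB20 vs. MOG. Hlf had 0.15 (-0.030 to 0.32), Bhlhe41 0.090 (-0.049 to 0.23) and Nfil3 -0.037 (-0.27 to 0.19), none of them called. Beside the GB20 values, the log2 fold changes against MOG were thus 1.16 and 0.79 for Ciart, 0.43 and 0.071 for Dbp, and 0.39 and 0.024 for Bhlhe40.

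GB20 vs. GV16 tests that difference between the needling sites itself. No member was called (0 of 7, edgeR), where 0.00546% of all genes, 1 gene, was. Without adjustment 3 members had a p under 0.05, as had 536 of all genes. Dbp was higher at GB20 by 0.36 on the log2 scale (SE 0.0721, 95% interval 0.21 to 0.51, edgeR adjusted p = 0.305), which was the second lowest p of all genes, and Bhlhe40 by 0.37 (SE 0.0819, 0.20 to 0.54, adjusted p = 0.659), the fifth lowest. The groups stood apart for these genes and for Tef, 3 members in all against 8.34% of all genes.

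The call of Dbp in GB20 vs. GV16 depended on the fit. It passed with DESeq2 on 12 libraries (adjusted p = 0.0134), with no filter on low counts (0.0239 in edgeR), with the replicate block and the length trend removed together (0.0481) and without SHAM 2 (0.0449), and it failed in the other 7 alternatives and the other 11 fits that left out 1 library. Ciart had a log2 fold change of 0.36 (95% interval 0.11 to 0.62, adjusted p = 0.9999) with overlapping groups, and its groups are thus not shown to differ by needling site. Tef had 0.047 (-0.088 to 0.18), Bhlhe41 0.040 (-0.098 to 0.18), Hlf 0.019 (-0.16 to 0.19) and Nfil3 -0.036 (-0.27 to 0.20).

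**Figure D3:**
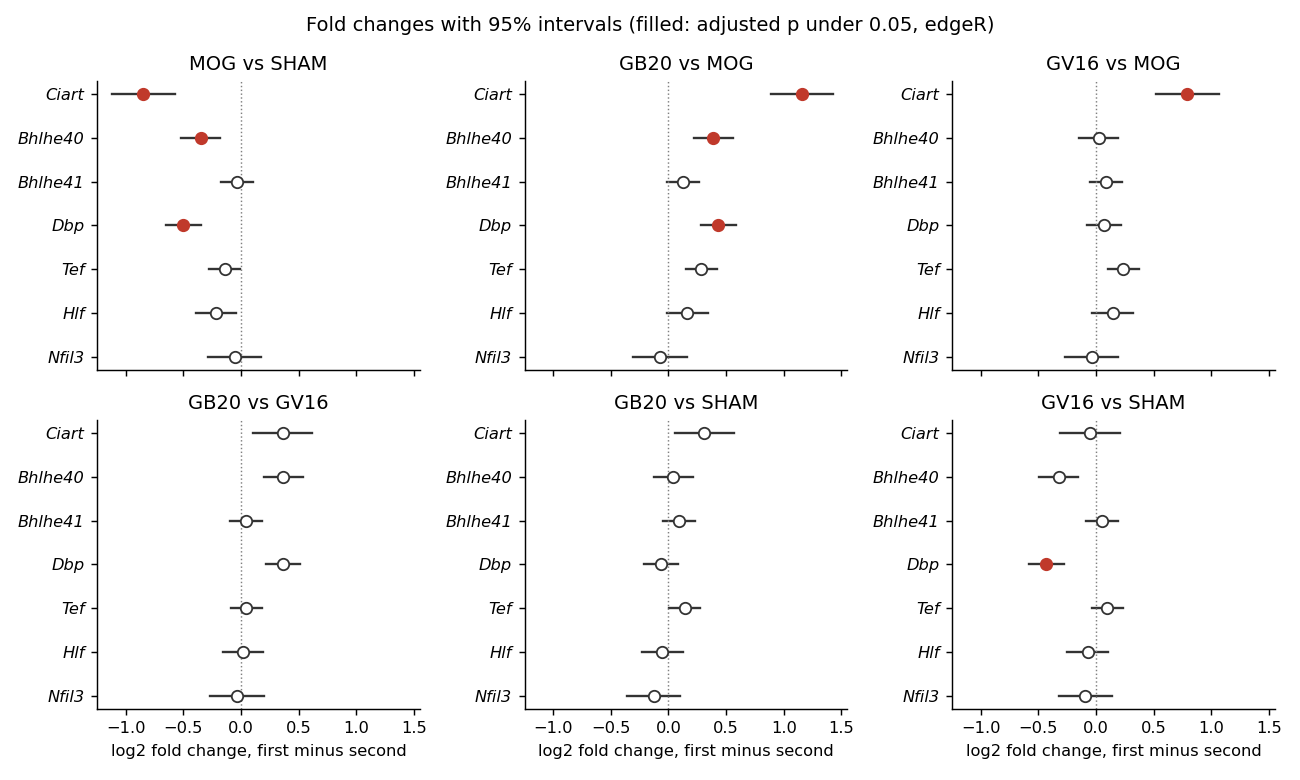
Log2 fold change of each member in the 6 comparisons, first group minus second, with 95% intervals from the unpaired edgeR fit. Filled points passed an adjusted p of 0.05. Ciart is called in MOG vs. SHAM and in both comparisons of a needled group with MOG, Dbp and Bhlhe40 are called in MOG vs. SHAM and GB20 vs. MOG, and Dbp is also called in GV16 vs. SHAM.

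Each needled group was also compared with SHAM, to see which members were still away from the control level. In GV16 vs. SHAM, Dbp was lower, falling by 0.43 on the log2 scale (SE 0.0721, edgeR adjusted p = 0.00407) to 0.743 of SHAM. It was the only 1 of 7 members called in the unpaired main fit, against 0.656% of all genes. The call was lost without GV16 3 (adjusted p = 0.0661 in edgeR). Bhlhe40 had -0.32 (SE 0.0820, adjusted p = 0.0765) and was called with the replicate block (adjusted p = 0.0422), which brought the members called to 2. Its groups did not overlap, nor did those of Dbp and Tef, 3 members against 14.5% of all genes. Ciart had -0.052 (95% interval -0.31 to 0.21). The remaining values were 0.097 for Tef, -0.072 for Hlf, -0.091 for Nfil3 and 0.053 for Bhlhe41. All 6 ganglion cell markers were called lower here as well, with a median log2 fold change of -0.78, as was the Müller glia marker Rlbp1, which fell by 0.36 (adjusted p = 0.0261), and the cone opsin Opn1mw rose by 0.35 (adjusted p = 0.0404). Their part in the values of Dbp and Bhlhe40 was not tested.

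In GB20 vs. SHAM no member was called (0 of 7, unpaired edgeR fit), where 0.344% of all genes was. Without adjustment 2 members had a p under 0.05, as had 1657 of the 18299 genes tested. With the replicate block, DESeq2 or limma 0 members were called as well. Ciart had 0.31 (0.055 to 0.56, adjusted p = 0.420) and Tef 0.14 (0.0086 to 0.28, adjusted p = 0.513), and these 2 members did not overlap, against 12.7% of all genes. Dbp had -0.066 (-0.21 to 0.081) and Bhlhe40 0.043 (-0.12 to 0.21). Bhlhe41 had 0.094, Hlf -0.053 and Nfil3 -0.13. Of the 6 ganglion cell markers 2 were called lower, Nefl and Thy1, and the list's median log2 fold change was -0.55.

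The balance of D-box activators and repressor was read as the summed FPKM of Dbp, Tef and Hlf over the FPKM of Nfil3. This ratio was 15.6 ± 0.988 in SHAM, 13.3 ± 0.584 in MOG, 17.3 ± 1.52 in GB20 and 15.2 ± 0.824 in GV16 (SD, n = 3), and no test was run on it. The MOG libraries (12.7 to 13.9) lay below every other library, while SHAM (14.5 to 16.5), GB20 (15.9 to 18.9) and GV16 (14.5 to 16.1) overlapped. Within the PAR-bZIP sum, Dbp made up 36.2% in SHAM, 31.2% in MOG, 34.1% in GB20 and 29.3% in GV16, and Tef 35.7%, 39.5%, 39.1% and 41.6%. The GV16 libraries thus had a sum of 106 FPKM, between 94.4 in MOG and 115 in SHAM, with the lowest mean share of Dbp.

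Between the DEC paralogs, the FPKM of Bhlhe40 over that of Bhlhe41 was 0.806 ± 0.0410 in SHAM, 0.649 ± 0.0254 in MOG, 0.777 ± 0.0384 in GB20 and 0.620 ± 0.0177 in GV16. SHAM and GB20 overlapped, MOG and GV16 overlapped, and the pairs stood apart.

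**Figure D4:**
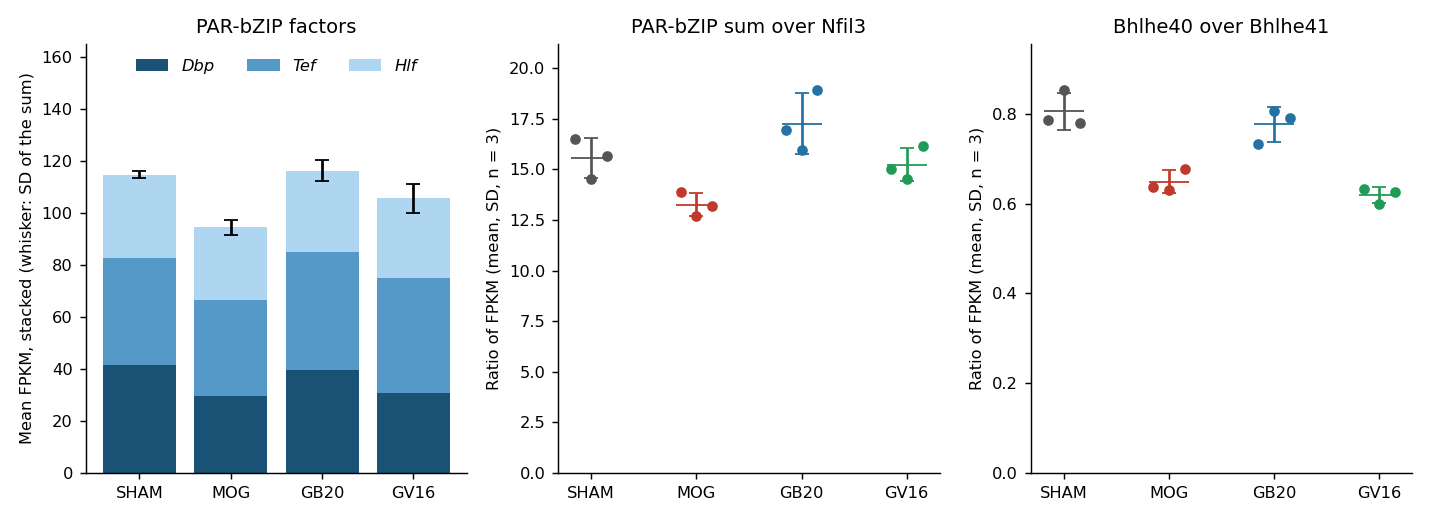
Stacked mean FPKM of Dbp, Tef and Hlf by group (left, whisker is the SD of the sum over 3 libraries), their sum over Nfil3 (middle) and Bhlhe40 over Bhlhe41 (right), with points for libraries. The MOG sum of 94.4 FPKM is the lowest, and the DEC ratio of GV16 (0.620) sits with that of MOG (0.649).

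The other clock genes were counted in 5 lists of 30 genes, 29 of them tested. In MOG vs. SHAM 1 was called, the output gene Wee1, a kinase that restrains entry into mitosis, which fell by 0.68 on the log2 scale (SE 0.144, adjusted p = 0.0131). In GB20 vs. MOG 3 were called, all core repressors and all higher: Per2 rose by 0.70 (SE 0.110, adjusted p = 0.00407), Per1 by 0.53 (adjusted p = 0.0338) and Cry1 by 0.40 (adjusted p = 0.0153). In GV16 vs. MOG, Per2 rose by 0.62 (adjusted p = 0.0170) and Cry1 by 0.37 (adjusted p = 0.0380), the 2 called.

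The levels of Per2, a period gene, were 32.5, 40.9 and 44.6 CPM in SHAM and 27.4, 33.2 and 30.0 CPM in MOG. They were 45.7, 51.3 and 49.6 CPM in GB20 and 51.2, 40.1 and 47.7 CPM in GV16. Both needled groups lay above MOG for Per2, while MOG overlapped SHAM and its log2 fold change of -0.38 was not called (adjusted p = 0.102). Ciart and Dbp were called lower in that comparison, and whether Per2 differed from them was not tested.

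None of the 4 core activators, which include the genes of CLOCK and BMAL1, was called in any comparison, and their median log2 fold change was 0.23 in MOG vs. SHAM and -0.18 in GB20 vs. MOG. Of the 5 nuclear receptors, Nr1d1, the E-box driven repressor REV-ERB alpha, was called once, in GV16 vs. SHAM, where it fell by 0.36 (adjusted p = 0.0334), the single call of the 29 genes there. None of the 8 genes of clock protein turnover was called. In GB20 vs. GV16 and in GB20 vs. SHAM 0 of the 29 genes were called in edgeR, with 1 and 7 at an unadjusted p under 0.05, beside 536 and 1657 of the 18299 genes tested. Over all 29 genes the median log2 fold change was 0.032 in MOG vs. SHAM, 0.0064 in GB20 vs. MOG and 0.023 in GV16 vs. MOG.

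**Figure D5:**
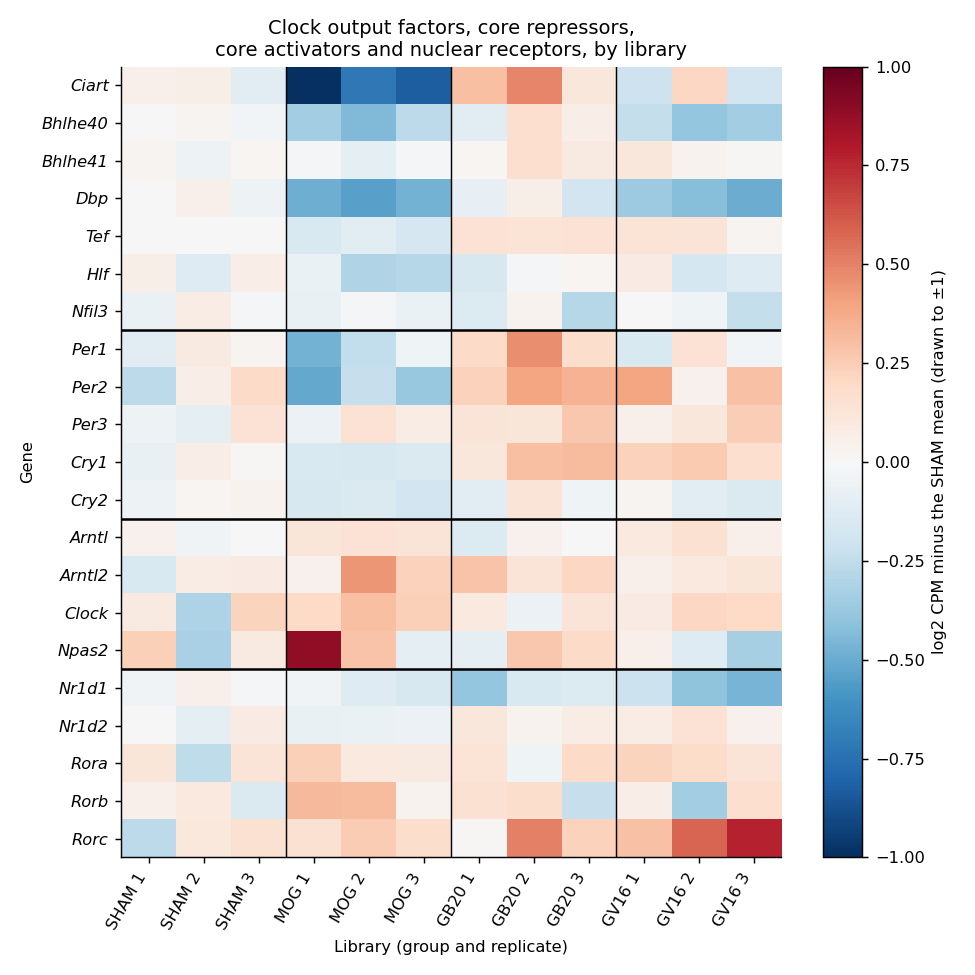
Log2 CPM of each gene minus its SHAM mean in the 12 libraries, with horizontal lines between the 7 members, the core repressors, the core activators and the nuclear receptors; blue is lower and red higher than the SHAM mean, and the colour scale ends at 1 in either direction. The 3 MOG libraries are darkest blue for Ciart, and Dbp and Bhlhe40 are blue in MOG and GV16.

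Among the members themselves, the pair with the highest Pearson r of log2 CPM over the 12 libraries was Bhlhe40 and Dbp (0.92, and 0.54 after group means were removed), followed by Ciart and Tef (0.88, and 0.34). Nfil3 had r between -0.18 and 0.28 with each other member. After group means were removed, its r was 0.86 with Dbp, 0.58 with Ciart and 0.53 with Tef. It was then 0.31 with Bhlhe40, 0.31 with Bhlhe41 and -0.070 with Hlf. These values describe 12 libraries that share 4 group means.

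By the same measure, the 5 non-member genes most like Ciart, of 12270 genes with a mean of at least 5 CPM, were Tsc22d3 (r = 0.93, rho = 0.87), Prr5, Slc26a6, Lrrc73 and Vasp (r = 0.90 for the last). With group means removed, r with Ciart was 0.62 for Tsc22d3, 0.42 for Prr5, 0.73 for Slc26a6, 0.82 for Lrrc73 and 0.85 for Vasp. Tsc22d3, which encodes the glucocorticoid-induced leucine zipper protein GILZ, averaged 36.0 CPM in SHAM, 27.3 in MOG, 36.5 in GB20 and 33.5 in GV16. It fell by 0.40 on the log2 scale in MOG vs. SHAM (adjusted p = 0.0131) and rose by 0.42 in GB20 vs. MOG (adjusted p = 0.0290), with 0.29 (adjusted p = 0.379) in GV16 vs. MOG. Prr5, a subunit of the mTORC2 kinase complex, was also called in both of the former, with -0.68 (adjusted p = 0.0225) and 0.85 (adjusted p = 0.0118).

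The 5 most like Dbp were 5730409E04Rik (r = 0.92), Paqr7, Vstm2l, Hsf4 and Tuba1a (r = 0.89). Paqr7, a membrane progestin receptor, fell by 0.40 in MOG vs. SHAM (adjusted p = 0.0311) and Vstm2l by 0.42 (adjusted p = 0.0153). None of the 5 was called in GB20 vs. MOG or in GV16 vs. MOG, where Vstm2l had 0.0011. After group means were removed, r with Dbp was -0.021 for 5730409E04Rik and 0.64 for Paqr7, so the likeness of the former lies between the group means.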

How the data were processed

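Retinal RNA of 12 libraries was analysed, 3 per group, with groups and replicate numbers from the labels. The authors enriched polyadenylated RNA, aligned reads with HISAT2 2.0.5 to mm10 (per the submitters' processing notes), counted them per gene with FeatureCounts and deposited whole-number counts without normalization. A second table that the authors deposited holds FPKM values, counts divided by gene length and library total. For the annotation release, the strand setting and multiply aligned reads, nothing was found in the labels or methods. Of the columns 0 could not be matched to a sample. Library totals ran from 15860278 to 19194280 counts.

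The main test was that of edgeR 4.0.16 under R 4.3.3 (expression filter by group, TMM scaling, robust quasi-likelihood fit of all 12 libraries with 1 mean per group, 8 residual degrees of freedom). P-values were 2-sided and adjusted by Benjamini-Hochberg over 18299 genes, with calls under 0.05, in 6 comparisons. Log2 CPM used a prior count of 1. DESeq2 1.42.0 and limma 3.58.1 served as alternatives, limma on log2(FPKM + 1) and log2(FPKM + 0.1). The fits were tested on simulated counts. Members and gene lists were chosen with earlier results of these data known. All 7 members are named in each comparison, genes of the other clock lists where called, and the 5 genes with the highest Pearson r with Ciart or Dbp among those with at least 5 CPM on average. Genes overlapping a member, and cell type markers, are named for their bearing on it. Libraries of the same replicate number were checked for shared deviations from their group means: r lay between -0.129 and 0.481 over 18 pairs. Pairs of different numbers had r between -0.475 and 0.270, so the ranges overlapped. SHAM 1 had 0.188 with GB20 3 against 0.181 with GB20 1. All 3 pairs were over 0.1 between SHAM and each needled group, which was read as pairing in GB20 vs. SHAM and GV16 vs. SHAM. In the study's methods the experiment was repeated 3 times, so a replicate number may stand for a repeat shared by all groups. The labels do not say whether it does. The main fit left any pairing out, so its SE, intervals and p-values are unpaired in all 6 comparisons. The replicate block is the fit that holds such pairing, in each of the 6 comparisons.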

Additional observations from a re-analysis of the deposited data

How the results depend on the processing

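Of 924 refits of a member's fold change (10 other settings and 12 fits without 1 library, in 6 comparisons), 863 kept direction and side of the threshold, 27 lost a call, 19 gained 1 and 15 changed sign. The causes were not tested, apart from fewer libraries where 1 was left out. The 3 members called in MOG vs. SHAM ranged from 2 to 3 without 1 library. The 3 called in GB20 vs. MOG ranged from 1 to 4 without 1 library (1 without MOG 2 or GB20 2) and were 1 with limma on log2(FPKM + 1). The 1 called in GV16 vs. MOG ranged from 0 to 1 without 1 library, was 2, with Tef added, under DESeq2 on 12 or on 6 libraries and under the replicate block with the length trend removed, and was 0 under limma on log2(FPKM + 1) and on log2(FPKM + 0.1). The 0 called in GB20 vs. GV16 ranged from 0 to 1 without 1 library and was 1, Dbp, under DESeq2 on 12 libraries, no filter on low counts, and the replicate block with the length trend removed. In GB20 vs. SHAM 0 members were called in every fit run. The 1 called in GV16 vs. SHAM ranged from 0 to 1 without 1 library and was 2, with Bhlhe40 added, under DESeq2 on 12 libraries, no filter, the replicate block, and the block with the length trend removed. In GB20 vs. MOG the replicate block added Tef (adjusted p = 0.0312 in edgeR), to 4 members, and in the other comparisons it changed no other member's call.

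Nfil3 in MOG vs. SHAM changed sign with the length trend removed (0.0206) and with the replicate block as well (0.0202). Without 1 library, signs changed for fold changes near 0: Bhlhe40 in GV16 vs. MOG (-0.0228 to 0.063) and GB20 vs. SHAM (-0.0213 to 0.123), Nfil3 in GV16 vs. MOG (-0.087 to 0.0344) and GB20 vs. GV16 (-0.122 to 0.0368), Hlf in GB20 vs. GV16 (-0.0313 to 0.0996) and GB20 vs. SHAM (-0.108 to 0.0055), and Ciart in GV16 vs. SHAM (-0.1998 to 0.0196).

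Counts over all genes moved more. The 245 genes called in MOG vs. SHAM ranged from 91 to 539, the 44 in GB20 vs. MOG from 13 to 140, the 30 in GV16 vs. MOG from 5 to 73, the 1 in GB20 vs. GV16 from 0 to 8, the 63 in GB20 vs. SHAM from 11 to 282 and the 120 in GV16 vs. SHAM from 23 to 395. With 3 libraries per group, a p over the threshold does not show that 2 groups have the same level, and the intervals give the sizes not excluded.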
